A study of Homo sapiens with 12 samples.

Results

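The 9 genes described here encode the parts of the hemidesmosome and of its laminin-332 and collagen anchor: ITGA6, ITGB4 and CD151 (receptor), PLEC and DST (cytoplasmic plakins), LAMA3 and LAMB3 (laminin-332 ligand), and COL17A1 and COL7A1 (collagens). They were chosen by symbol for their known place in the anchoring complex with which ladinin-1, the product of LAD1, is associated. The choice was made with earlier results of these data known. All 9 were found among the 26365 gene symbols of the table, and all 9 passed the filter on low values that left 13950 genes for testing. RNA was measured in HCC70, an established line from a human breast cancer of the basal-like, triple-negative kind. The cells stably expressed a short hairpin RNA, either one targeting LAD1 (called shLAD1 cells here) or a scramble control (scramble cells). All cells went overnight without serum and were then given 50 ng/ml epidermal growth factor (EGF), a mitogen that activates the receptor EGFR, for 0, 40 or 240 min. This gives 6 groups of 2 libraries: shLAD1 at 0, 40 and 240 min, and scramble at 0, 40 and 240 min. The labels name no more than a single shRNA against LAD1, so loss of LAD1 cannot be told apart from another effect of that shRNA. Each EGF time is set against 0 min, and the series has no cells kept without EGF for 40 or 240 min, so EGF cannot be told apart from time or handling. In bulk RNA, fewer cells expressing a gene and less RNA per cell cannot be told apart.

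Hemidesmosomes rivet basal epithelial cells to the basement membrane. Inside the cell, plectin (PLEC) and the epithelial form of dystonin (DST, also called BPAG1) tie keratin filaments to the long tail of integrin β4. Integrin α6β4 (ITGA6, ITGB4) and the transmembrane collagen XVII (COL17A1) cross the membrane with the tetraspanin CD151 and bind laminin-332, a trimeric matrix protein that holds the α3 and β3 chains (LAMA3, LAMB3). Collagen VII (COL7A1) forms the anchoring fibrils that hold laminin-332 to the stroma below. Inherited loss of these proteins causes forms of epidermolysis bullosa, a family of blistering skin diseases. In carcinoma cells EGF is known to loosen hemidesmosomes through phosphorylation of β4, and laminin-332 is a known substrate for migration. The table gives a value per symbol, so isoforms (the epithelial and other forms of DST, the long and short forms of LAMA3, the A and B tails of ITGA6) are summed.

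Start-site sequences of 4 members are shown because the tests called these genes differently: LAMB3 was higher at both EGF times, ITGA6 at 240 min alone, LAMA3 at neither by the test used, and COL7A1 differed most between shLAD1 and scramble cells. They come from RefSeq (GRCh38.p14), which held 11 windows of 250 bases before an annotated start for 6 of the 9 members. A pair of short motifs was searched on both strands: the AP-1 element TGAGTCA or TGACTCA (each the reverse complement of the other), bound by FOS and JUN proteins, and the GC box GGGCGG or CCGCCC, bound by SP1. The motifs found did not overlap each other. Capitals mark the matches and lower case the rest, and all are written 5′ to 3′ on the gene's strand. The LAMB3 stretch (chr1:209651395-209651624, minus strand) leaves out 20 exonic bases of its window. The LAMA3 sites (chr18:23872885-23872911 and chr18:23872941-23872967, plus strand) are given as 27-base stretches. Both lie inside the 180 bases of that window that overlap annotated exons, so unlike the LAMB3 stretch they are exonic. The ITGA6 stretch is chr2:172427086-172427335 on the plus strand, and the COL7A1 stretch is chr3:48595330-48595579 on the minus strand.
LAMB3: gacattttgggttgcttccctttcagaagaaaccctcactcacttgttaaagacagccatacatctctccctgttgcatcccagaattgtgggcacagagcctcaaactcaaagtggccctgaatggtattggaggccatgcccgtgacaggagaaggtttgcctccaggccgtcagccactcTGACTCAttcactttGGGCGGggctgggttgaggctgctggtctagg
LAMA3 upstream site: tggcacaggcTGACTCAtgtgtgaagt
LAMA3 downstream site: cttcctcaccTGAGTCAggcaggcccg
ITGA6: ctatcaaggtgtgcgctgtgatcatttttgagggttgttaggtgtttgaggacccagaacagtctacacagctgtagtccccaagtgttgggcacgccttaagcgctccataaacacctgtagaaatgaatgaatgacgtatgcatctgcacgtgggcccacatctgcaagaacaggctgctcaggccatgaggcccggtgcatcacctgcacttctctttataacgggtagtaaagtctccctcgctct
COL7A1: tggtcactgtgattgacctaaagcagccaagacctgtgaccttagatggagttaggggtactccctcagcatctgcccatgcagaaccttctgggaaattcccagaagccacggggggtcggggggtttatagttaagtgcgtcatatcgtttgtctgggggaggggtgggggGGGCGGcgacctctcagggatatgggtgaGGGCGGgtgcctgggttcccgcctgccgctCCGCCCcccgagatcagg

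The LAMB3 stretch held an AP-1 match 67 bases before the start and a GC box 52 bases before it. The LAMA3 window searched had AP-1 matches 125 and 69 bases before its annotated start and a GC box 197 bases before it. Which form of LAMA3 begins at this start was not examined. COL7A1 had GC boxes 77, 48 and 18 bases before its start and no AP-1 match, and the ITGA6 stretch shown held neither motif. The window of a second ITGA6 start held GC boxes 217, 106 and 55 bases before it and no AP-1 match. Those of the 2 other LAMB3 starts held a GC box, 88 and 184 bases before the start, and no AP-1 match. Of the DST windows, not shown, that of the start at chr6:56954830 held GC boxes 244, 199, 125 and 44 bases before it and no AP-1 match. The other DST windows and the COL17A1 window held neither motif. The AP-1 heptamer was present in 4.20% of all 35116 windows of this length, and 0.182% held 2 or more. A GC box was present in 42.6%.

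The libraries held 12428618 to 16721013 reads. As the check of the knockdown, LAD1 had 1091 and 865 normalized counts in shLAD1 cells at 0 min, against 5925 and 6406 in scramble cells. At 40 min it had 1181 and 971 in shLAD1 cells, against 5808 and 6522 in scramble cells, and at 240 min 2535 and 2297 against 9102 and 10194. A normalized count is the number of reads of a gene divided by a size factor of its library. The log2 fold change of LAD1 was -2.66 at 0 min (adjusted p = 0.00012), -2.52 at 40 min (0.000195) and -2.0 at 240 min (0.00153). As a check of the cell type, the basal keratin KRT5 was high in every library (39623 to 78195 normalized counts), while TP63, a defining basal factor that activates several of these anchoring genes in epidermis, was low (15.4 to 34.5). Luminal genes were also present, with KRT8 at 7463 to 20330.1, KRT18 at 2969 to 10079, FOXA1 at 963 to 2631 and GATA3 at 1198 to 1709, while the progesterone receptor PGR was at 0 to 1.03. Of the fibroblast genes DCN and LUM were at 0 to 1.0 and COL1A1 at 243 to 895, and of the leukocyte genes PTPRC was at 0 to 1.11, CD68 at 741 to 1577 and CD14 at 547 to 1354.

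Per kilobase of exon (GENCODE v29 exon lengths), the levels fell into 4 tiers. LAMB3 was highest at a mean of 1483 normalized counts per kb, followed by PLEC at 1175 and CD151 at 792, and the group means of these 3 genes overlapped. ITGB4 (293), ITGA6 (257) and LAMA3 (241) overlapped at a lower level. DST stood apart at 51.4, on an exon length of 42.3 kb that joins all its annotated forms. Which forms were expressed was not tested, and a shorter form would give a higher value per kb. The collagens were lowest, with COL7A1 at 7.11 and COL17A1 at 2.45 normalized counts per kb, and their ranges overlapped (1.36 to 13.7 and 1.58 to 4.02). Collagen XVII RNA was therefore near the filter on low values, with 7.20 to 33.8 normalized counts per library. The kit does not mark strand, and 5.37% of ITGA6 exon bases and 7.57% of CD151 exon bases overlap other genes, ITGA6-AS1 and POLR2L among them.

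**Figure D1:**
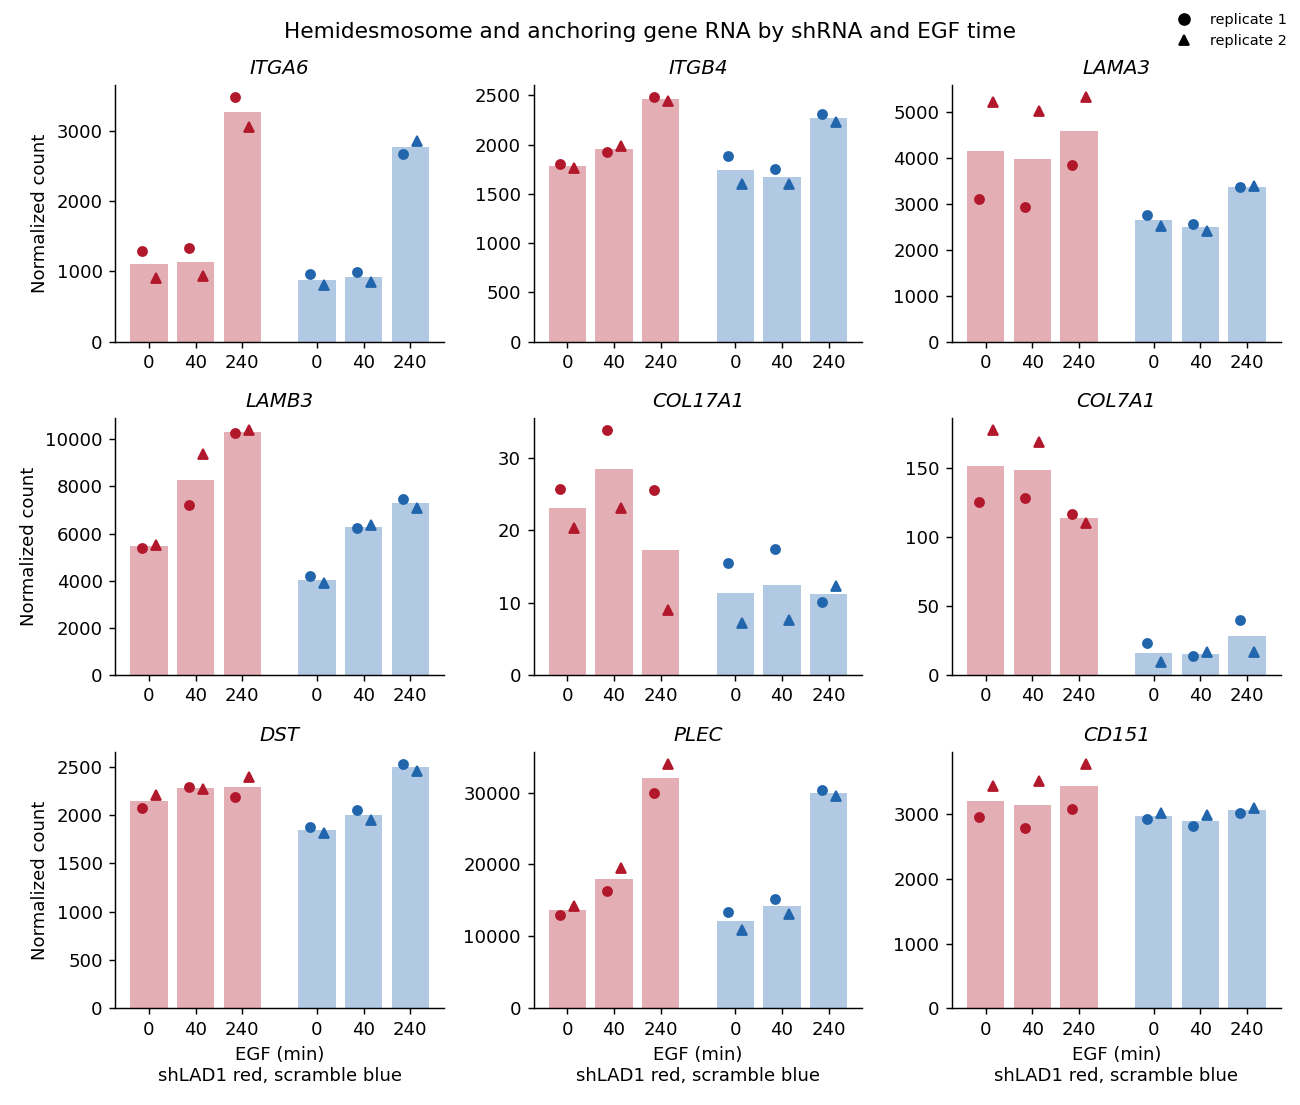
Normalized counts of the 9 genes (y axis, from 0, separate for each gene) by EGF time in min (x axis) for shLAD1 (red) and scramble cells (blue). Bars are means of 2 libraries, circles replicate 1 and triangles replicate 2. ITGA6 and PLEC are highest at 240 min in both cell types, LAMB3 is already higher at 40 min, and COL7A1 is far higher in all shLAD1 libraries (110.1 to 177) than in scramble libraries (9.25 to 39.4).

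After 240 min of EGF, RNA of both α6β4 integrin chains, of plectin and of the laminin chain LAMB3 rose in both kinds of cells. In shLAD1 cells 4 of the 9 genes rose (PLEC, LAMB3, ITGA6 and ITGB4) and none fell, in a comparison in which 10.8% of the tested genes rose and 7.76% fell. In scramble cells 5 rose (PLEC, ITGA6, LAMB3, DST and ITGB4) and none fell, where 11.7% of tested genes rose and 8.44% fell. The median log2 fold change of the 9 genes was 0.17 in shLAD1 cells, beside -0.0084 over all tested genes, and 0.44 in scramble cells, beside -0.017. Fold changes are limma-trend estimates on log2(normalized count + 1) with their standard error, n = 2 libraries a group, and adjusted p is over all tested genes. Libraries that do not overlap are common with 2 a group. In shLAD1 cells both 240 min libraries were above both 0 min libraries for 26.8% of tested genes and below for 26.6%. In scramble cells the shares were 31.6% and 32.2%. CD151, LAMA3, COL17A1 and COL7A1 did not pass the test in either kind of cell. Total-count scaling moved the balance over all genes to 1016 higher and 1915 lower in shLAD1 cells (1502 and 1083 with the authors' size factors) and to 1143 and 2200 in scramble cells (1635 and 1178). With it the same 4 genes were called in shLAD1 cells, and 4 of the 5, without ITGB4, in scramble cells.

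ITGA6, the α6 integrin chain, had the largest change of the 9 at 240 min. In shLAD1 cells ITGA6 had 1289 and 913 normalized counts at 0 min, 1328 and 942 at 40 min, and 3490.0 and 3063 at 240 min. Scramble cells had 965 and 804, then 992 and 848, then 2678 and 2870.25. Every 240 min library was above every earlier one, while 0 and 40 min overlapped. The log2 fold change at 240 min was 1.59 ± 0.20 in shLAD1 cells (adjusted p = 0.00126) and 1.65 ± 0.20 in scramble cells (adjusted p = 0.000853).

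ITGB4, the β4 chain that pairs with α6 alone and carries the plectin-binding tail, moved less. It had 1800.0 and 1763 normalized counts at 0 min, 1921 and 1982 at 40 min, and 2482 and 2446 at 240 min in shLAD1 cells. In scramble cells the values were 1884 and 1602, then 1751 and 1599.8, then 2308 and 2228. The 240 min libraries lay above all others in both kinds of cells. ITGB4 rose by 0.47 ± 0.08 in shLAD1 cells (adjusted p = 0.00553) and by 0.38 ± 0.08 in scramble cells (adjusted p = 0.0126). The scramble call was lost with total-count scaling (0.26, adjusted p = 0.0643) and without any of 3 of its 4 libraries (0.27 to 0.41), and the shLAD1 call in a fit of those groups alone (adjusted p = 0.0607).

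CD151, the tetraspanin that associates with laminin-binding integrins, stayed between 2780.4 and 3779 normalized counts in shLAD1 libraries and between 2815 and 3103 in scramble libraries. No comparison called it, and its 0 and 240 min libraries overlapped in both kinds of cells. Of the receptor genes, α6 was thus the one with a change above 1 on the log2 scale.

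PLEC, the plakin that binds keratin filaments and the β4 tail, had the highest normalized counts of the 9. In shLAD1 cells PLEC had 12969.6 and 14243 normalized counts at 0 min, 16290.2 and 19563 at 40 min, and 29935.5 and 34008 at 240 min. Scramble cells had 13435 and 10845 at 0 min, 15199 and 13132 at 40 min, and 30370.3 and 29562 at 240 min. The 240 min libraries did not overlap the earlier ones. The log2 fold change at 240 min was 1.23 ± 0.13 in shLAD1 cells (adjusted p = 0.000503) and 1.31 ± 0.13 in scramble cells (adjusted p = 0.000318).

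DST, the plakin whose epithelial form sits beside plectin in the inner plaque, differed in its calls between the cells. In shLAD1 cells it had 2076 and 2211 normalized counts at 0 min, 2289 and 2266 at 40 min, and 2188 and 2397 at 240 min. In scramble cells it had 1872 and 1815, then 2047 and 1944, then 2531 and 2455. Scramble libraries at 240 min were above all others, and those of shLAD1 cells at 40 and 240 min overlapped. The change at 240 min was 0.10 ± 0.07 in shLAD1 cells (adjusted p = 0.394), or -0.025 with total-count scaling, and DST rose by 0.44 ± 0.07 in scramble cells (adjusted p = 0.00261). Within scramble cells the 240 min ratio to 0 min was 1.35 in both replicates, and within shLAD1 cells 1.05 and 1.08.

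LAMB3, the β3 chain found only in laminin-332, rose at both EGF times. In shLAD1 cells LAMB3 had 5399.96 and 5532 normalized counts at 0 min, 7205 and 9384 at 40 min, and 10274.5 and 10379 at 240 min. Scramble cells had 4182 and 3911, then 6225 and 6375, then 7487 and 7079.9. In each kind of cell the 3 times did not overlap. At 240 min LAMB3 rose by 0.92 ± 0.11 in shLAD1 cells (adjusted p = 0.000783) and by 0.85 ± 0.11 in scramble cells (adjusted p = 0.000875).

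LAMA3, the α3 chain that carries the integrin-binding end of laminin-332, did not pass the test at either EGF time. In shLAD1 cells LAMA3 had 3097 and 5208 normalized counts at 0 min, 2929 and 5027 at 40 min, and 3832 and 5318 at 240 min. Scramble cells had 2759 and 2517, then 2561 and 2406, then 3373 and 3373. The replicates of shLAD1 cells lay further apart than the times did, and in scramble cells both 240 min libraries were above the others. The log2 fold change at 240 min was 0.17 ± 0.30 in shLAD1 cells (adjusted p = 0.768) and 0.36 ± 0.30 in scramble cells (adjusted p = 0.463). With a replicate block within each shRNA, which compares each replicate number with itself, both passed (adjusted p = 0.0283 and 8.34e-05), and the scramble change also passed in a fit of those groups alone (adjusted p = 0.0191). That block called 3440 of 13950 tested genes higher in shLAD1 cells and 3525 in scramble cells. The fit of the scramble groups alone called 1860 of 13416 higher.

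COL7A1, the anchoring fibril collagen, had 125 and 177 normalized counts at 0 min, 128 and 169 at 40 min, and 117 and 110.1 at 240 min in shLAD1 cells. Scramble cells had few reads of it, at 22.8 and 9.25 normalized counts, then 13.5 and 16.7, then 39.4 and 16.7. Its times overlapped in scramble cells, and both 240 min libraries of shLAD1 cells were below the earlier ones. After 240 min of EGF the log2 fold change was -0.39 ± 0.46 in shLAD1 cells (adjusted p = 0.634) and 0.78 ± 0.46 in scramble cells (adjusted p = 0.286, or 0.0495 with a replicate block within each shRNA). That block called 3525 of 13950 tested genes higher in scramble cells. The scramble change was 0.17 without replicate 2 at 0 min, 0.18 without replicate 1 at 240 min, 1.38 without replicate 1 at 0 min and 1.37 without replicate 2 at 240 min. The shLAD1 change was -0.64 without replicate 1 and -0.14 without replicate 2 at 0 min. Fits with a library left out set unequal sets of replicate numbers against each other. Within replicate numbers, the 240 min ratio to 0 min was 1.73 and 1.80 in scramble cells and 0.931 and 0.622 in shLAD1 cells. COL17A1, the transmembrane collagen, had 25.7 and 20.4 normalized counts at 0 min, 33.8 and 23.1 at 40 min, and 25.6 and 9.0 at 240 min in shLAD1 cells. In scramble cells it had 15.5 and 7.20, then 17.5 and 7.51, then 10.1 and 12.2. Its replicates differed by as much as its times, and no EGF comparison called it.

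**Figure D2:**
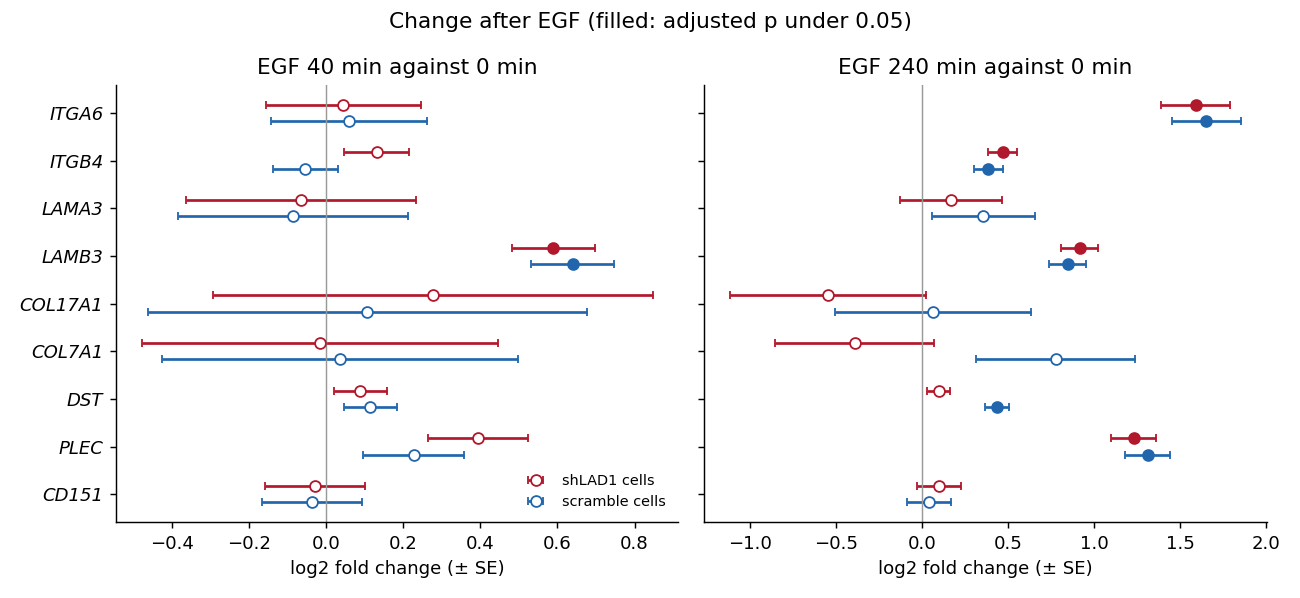
Log2 fold change (x axis) of each gene after 40 min (left) and 240 min of EGF (right) against 0 min, in shLAD1 (red) and scramble cells (blue). Circles are limma-trend estimates, bars 1 SE, and filled circles an adjusted p under 0.05. At 40 min only LAMB3 is filled, and at 240 min DST is filled in scramble cells alone while ITGA6 and PLEC lie above 1 in both.

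At 40 min of EGF, LAMB3 alone of the 9 passed the test used, which does not pair the replicates. LAMB3 rose by 0.59 ± 0.11 in shLAD1 cells (adjusted p = 0.0393) and by 0.64 ± 0.11 in scramble cells (adjusted p = 0.0308). In these comparisons 1.02% of tested genes rose in shLAD1 cells and 0.846% in scramble cells. Both 40 min libraries were above both 0 min libraries for 12.8% of tested genes in shLAD1 and 16.2% in scramble cells. The other 8 genes had log2 changes of -0.07 to 0.39 in shLAD1 cells and -0.09 to 0.23 in scramble cells. The scramble call of LAMB3 was lost without any of its 4 libraries (0.59 to 0.69), and the shLAD1 call without any of 3 of its 4 (0.40 to 0.61), with total-count or upper-quartile scaling (adjusted p = 0.0541 and 0.0591) and in a fit of those groups alone. PLEC had the next largest change, 0.39 in shLAD1 cells (adjusted p = 0.528) and 0.23 in scramble cells (adjusted p = 1), and passed with a replicate block within each shRNA (5.02e-05 and 0.0129 as adjusted p). That block called 561 of 13950 tested genes higher in shLAD1 cells and 444 in scramble cells. The 40 min ratios of PLEC to 0 min were 1.26 and 1.37 in shLAD1 cells and 1.13 and 1.21 in scramble cells.

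Between the shRNAs, the largest difference among the 9 was that of COL7A1. At 0 min it was 9.44-fold higher in shLAD1 than in scramble cells by group means, at 40 min 9.84-fold and at 240 min 4.04-fold. The log2 fold change was 3.26 ± 0.46 at 0 min (adjusted p = 0.017), 3.21 ± 0.46 at 40 min (adjusted p = 0.0161) and 2.10 ± 0.46 at 240 min (adjusted p = 0.0786). COL7A1 was the only one of the 9 called at 0 and at 40 min, where 0.717% and 0.81% of tested genes were higher in shLAD1 cells. None was called at 240 min, where 0.444% were. With the replicate block COL7A1 and LAMB3 passed at every time, with adjusted p of 0.00276, 0.0034 and 0.023 for COL7A1 and of 0.0225, 0.0365 and 0.0155 for LAMB3. This block called 791, 822 and 713 of 13950 tested genes higher in shLAD1 cells at 0, 40 and 240 min. COL7A1's calls were lost in a fit of the groups compared alone (adjusted p = 0.142 and 0.115). They were also lost without scramble replicate 2 or either shLAD1 library at 0 min (0.0768 to 0.114) and without any library at 40 min (0.0707 to 0.127). In the authors' deposited table, whose log2 fold changes lay within 0.01 of the 0 min ratio for 99.98% of 11243 genes, COL7A1 was at 3.24 (adjusted p = 5.54e-08), LAMB3 at 0.43 (0.0139) and LAMA3 at 0.65 (0.198).

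Averaged over the 3 times, COL7A1 (2.86 ± 0.27, adjusted p = 0.00039) and LAMB3 (0.44 ± 0.06, adjusted p = 0.00225) were higher in shLAD1 cells and none of the 9 was lower. Over all tested genes 9.25% were higher and 9.3% lower. All 9 estimates were above 0, with a median of 0.27 beside -8.8e-07 over all tested genes. The ligand chain LAMA3 was at 0.55 ± 0.17 (adjusted p = 0.0593). DESeq2 and edgeR did call LAMA3 here, among 1366 and 1272 of 13950 tested genes called higher. The receptor genes were at 0.27 ± 0.12 for ITGA6 (adjusted p = 0.133), 0.13 for ITGB4 (0.104) and 0.12 for CD151 (0.276), and the plakins at 0.20 for PLEC (0.0969) and 0.10 for DST (0.126). COL17A1 was at 0.89 ± 0.33 (adjusted p = 0.0916). With the replicate block 6 passed: COL7A1, LAMB3, COL17A1 (0.0157), ITGA6 (0.0175), ITGB4 (0.0321) and LAMA3 (0.0357). This block called many more genes, 2543 of 13950 tested genes higher and 2491 lower. The libraries of each shRNA and replicate number are called a population here. The labels do not say whether they come from the same culture. With each of the 4 populations as a single value none of the 9 passed, with adjusted p of 0.162 for COL7A1 and 0.219 for LAMB3. The targeted gene LAD1 did not pass there either (0.111). Over all tested genes the calls averaged over the times numbered 2588, and 787 with the population as a random block, where COL7A1 and LAMB3 still passed. With a single value per population limma called 0 genes, and 1798 had an unadjusted p under 0.05.

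The size of this difference was also read within each replicate number. COL7A1 in shLAD1 over scramble cells was 2.96- to 9.52-fold in replicate 1 and 6.59- to 19.1-fold in replicate 2. LAMB3 was 1.16- to 1.37-fold in replicate 1 and 1.41- to 1.47-fold in replicate 2. LAMA3 differed little in replicate 1 (1.12- to 1.14-fold) and more in replicate 2 (1.58- to 2.09-fold). ITGA6 had the reverse order, at 1.30- to 1.34-fold in replicate 1 and 1.07- to 1.14-fold in replicate 2. The shLAD1 cells of replicate 2 thus held the highest LAMA3 at every time.

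**Figure D3:**
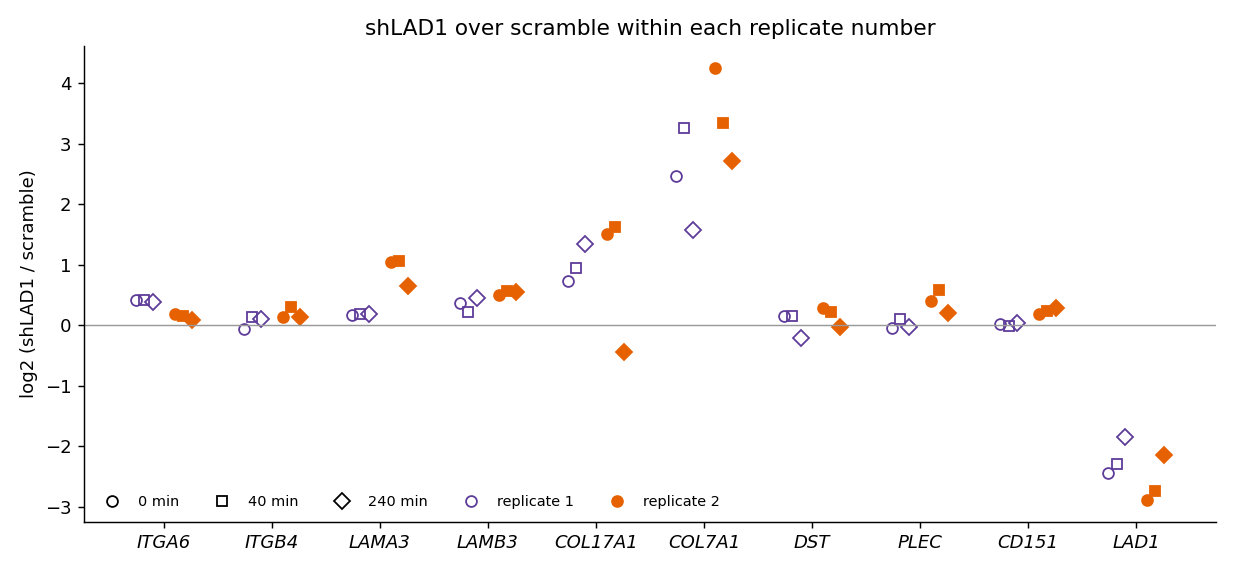
Log2 ratio of shLAD1 to scramble cells (y axis) within replicate 1 (open, purple) and replicate 2 (filled, orange) at 0 (circle), 40 (square) and 240 min (diamond), for the 9 genes and LAD1. COL7A1, LAMB3, LAMA3 and ITGA6 are above 0 in all 6 pairs and LAD1 below 0 in all 6, and the replicates of LAMA3 form separate clusters. How many of all tested genes lie on 1 side in all 6 pairs was not counted. Both shLAD1 libraries were above both scramble libraries for 21.9% of tested genes at 0 min, 23.4% at 40 min and 22.2% at 240 min.

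Markers of other cell states also differed between the shRNAs, although no difference averaged over the times passed with a single value per population. Of 12 genes of differentiating squamous epithelium, 10 passed the filter and 6 were higher in shLAD1 cells averaged over the times, with a median log2 change of 2.11, among them S100A7 (3.63), IVL (1.40) and SPRR2A (2.83). The summed level of the list was 2846 to 4847 normalized counts in shLAD1 libraries and 1182 to 1971 in scramble libraries, while LOR was at 0 in all. Of 6 basal breast markers none was called, and the summed level was 62546 to 114057 in shLAD1 and 55688 to 99931 in scramble libraries. Of 6 luminal markers GATA3 alone was higher (0.13), with summed levels of 15423 to 32670.4 and 13635 to 21654. Of 6 fibroblast markers COL1A1 was higher (1.26), with the other 5 at 3.08 normalized counts or less in every library and summed levels of 509.5 to 897 in shLAD1 and 243 to 377 in scramble libraries. Of 4 endothelial markers CDH5 was higher (1.97, summed levels 29.8 to 46.0 and 10.1 to 19.7), and of 4 leukocyte markers CD68 (0.70, summed levels 1631 to 2874 and 1672 to 2314). The part of these shifts in the differences of COL7A1 and LAMB3 was not tested.

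The responses to EGF were set against each other directly. No gene of the 13950 passed the test of the difference in response at 40 or at 240 min (0% and 0% called). Before adjustment, 99 genes at 40 min and 133 at 240 min had p under 0.05. DESeq2 and edgeR also called 0 at both times. For DST the 240 min response was lower in shLAD1 cells by 0.34 ± 0.10 on the log2 scale (a difference of -0.34), which did not pass (adjusted p = 0.9999). With a replicate block within each shRNA it was among 27 genes that passed (adjusted p = 0.0353). COL7A1's difference was -1.17 ± 0.65 and did not pass under any alternative. It was -0.56 without scramble replicate 2 at 0 min and -0.57 without scramble replicate 1 at 240 min. Without scramble replicate 1 at 0 min it was -1.77, and without scramble replicate 2 at 240 min -1.76. These fits also set unequal sets of replicate numbers against each other. For the other 7 genes the difference at 240 min was between -0.61 (COL17A1) and 0.08 (ITGB4). LAD1 itself rose at 240 min by 1.31 in shLAD1 cells (adjusted p = 0.000431) and by 0.64 in scramble cells (adjusted p = 0.00987). That difference of 0.67 ± 0.19 also passed only with the block within each shRNA (adjusted p = 1.42e-05).

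Ratios between partner genes, taken within each library, show how the composition of the complex's RNA changed, and are given without a test. ITGA6 over ITGB4 was 0.716 and 0.518 at 0 min, 0.691 and 0.475 at 40 min, and 1.41 and 1.25 at 240 min in shLAD1 cells. In scramble cells it was 0.512 and 0.502, then 0.567 and 0.530, then 1.16 and 1.29. The α6 RNA was thus below β4 RNA in read number at 0 and 40 min and above it at 240 min in all libraries. PLEC over ITGB4 was 7.21 and 8.08 at 0 min and 12.1 and 13.9 at 240 min in shLAD1 cells, and 7.13 and 6.77 at 0 min and 13.2 and 13.3 at 240 min in scramble cells.

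LAMB3 over LAMA3 was 1.74 and 1.06 at 0 min, 2.46 and 1.87 at 40 min, and 2.68 and 1.95 at 240 min in shLAD1 cells. In scramble cells it was 1.52 and 1.55, then 2.43 and 2.65, then 2.22 and 2.10. LAMB3 was above LAMA3 in read number in every library, at 0 min too, and in each replicate of both kinds of cells the ratio was higher at 40 than at 0 min. These are ratios of normalized counts, which depend on gene length, so their change across libraries is what they show.

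**Figure D4:**
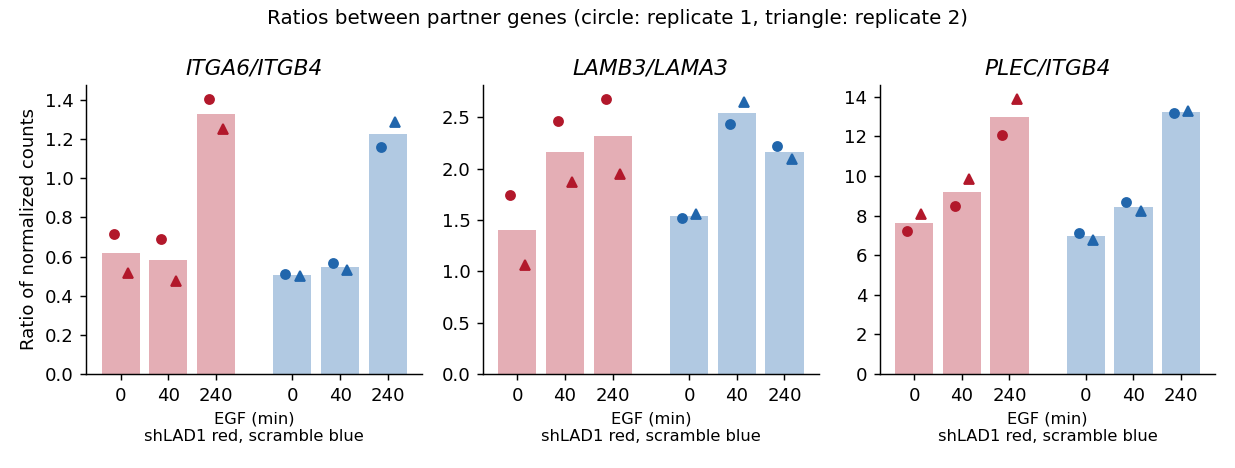
Ratios of normalized counts within a library (y axis, from 0) by EGF time in min for shLAD1 (red) and scramble cells (blue). Bars are means of 2 libraries, circles replicate 1 and triangles replicate 2. ITGA6/ITGB4 goes above 1 at 240 min alone, PLEC/ITGB4 is highest at 240 min, and LAMB3/LAMA3 is higher from 40 min on.

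Other genes of the anchoring system were read as 6 lists. None of their differences between the shRNAs averaged over the times passed with a single value per population, where 0 of all tested genes did. Among 11 other laminin receptors and integrin partners 3 rose at 240 min in both kinds of cells and none fell. These were ITGA2, a collagen receptor chain (1.70 in shLAD1, 1.78 in scramble cells), ITGA3, the α3 chain of the other laminin-332 integrin (1.14 and 1.31), and CD44, the hyaluronan receptor (0.87 and 1.01). The list's median change was 0.15 in shLAD1 and 0.091 in scramble cells. ITGA3 had 2301 and 2554 normalized counts at 0 min and 5076 and 5628 at 240 min in shLAD1 cells, and 2101 and 2027 at 0 min and 4827 and 5452 at 240 min in scramble cells. The RNA of both laminin-332-binding α chains was therefore higher at 240 min. Between the shRNAs, averaged over the times, ITGB1 was higher in shLAD1 cells (0.63) and the tetraspanins CD82 (-0.57) and CD81 (-0.78) were lower, with a list median of 0.054.

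Of the 5 other plakins, 3 rose at 240 min in both kinds of cells: EPPK1, epiplakin (1.20 in shLAD1, 1.5 in scramble cells), MACF1, which links microtubules to actin (0.56 and 0.84), and PPL, periplakin of the cornified envelope (0.60 and 0.47). The median of the 5 was 0.56 in shLAD1 and 0.47 in scramble cells. The same 3 were higher in shLAD1 cells averaged over the times, EPPK1 by 0.53, MACF1 by 0.28 and PPL by 0.21, with a median of 0.21, and MACF1 was the one called at a single time (0.42 at 40 min).

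Of 12 other laminin chains and laminin processing genes 10 were tested, LAMA1 and LAMC3 being too low. Averaged over the times, BMP1, a proteinase that processes procollagen VII, was higher in shLAD1 cells (0.72, and 0.76 at 40 min), and the related proteinase TLL1 was lower (-1.71), with a median of 0.23. Of 16 other basement membrane components 11 were tested. TINAGL1, a matrix protein that binds laminins and integrins, rose at 240 min (0.74 in shLAD1, 0.92 in scramble cells), with list medians of -0.10 and -0.081. Averaged over the times 4 were higher in shLAD1 cells and none lower (median 0.14), led by HSPG2, perlecan (1.17), COL4A6 (1.79) and COL4A5 (1.15), chains of type IV collagen. HSPG2 was called at each time (1.25, 1.23 and 1.04 at 0, 40 and 240 min), and COL4A6 at 240 min (2.13).

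Of 9 keratins, none passed at 240 min in shLAD1 cells (median 0.65), while KRT17 (2.25) and KRT6B (0.97) rose in scramble cells (median 0.60). KRT5, a filament partner of plectin in basal cells, had 48001 and 64487 normalized counts at 0 min and 65437 and 74613 at 240 min in shLAD1 cells. In scramble cells it had 39622.5 and 48025 at 0 min and 52810.0 and 65375.5 at 240 min, and it did not pass (adjusted p = 0.343 and 0.203). Its partner KRT14 was at 520 to 1882 in shLAD1 and 969 to 1218 in scramble libraries and was called in no EGF comparison. Averaged over the times KRT6A was higher (1.77) and KRT6B lower (-0.85) in shLAD1 cells, with a median of 0.11. Of 10 integrin activators and other skin fragility genes, 3 rose and 2 fell at 240 min in each kind of cell. SERPINB8, a protease inhibitor, rose by 1.47 in shLAD1 and 1.52 in scramble cells, and was also called at 40 min (0.64 and 0.57), when no other gene of the 6 lists was. FERMT1, the integrin activator kindlin-1, rose by 1.30 and 1.12, and PKP1, a desmosomal plaque protein, by 0.48 and 0.74. KLHL24, a ubiquitin ligase adaptor that targets keratin 14, fell (-2.42 and -2.56), and so did EXPH5, an effector of vesicle transport (-0.84 and -0.64). The list's medians were -0.0056 and 0.093. FERMT1 was the one of this list higher in shLAD1 cells averaged over the times (1.11, median 0.0015).

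The genes whose pattern over the 12 libraries lay closest to each of the 9 were found by Pearson's r of log2(normalized count + 1) among 10231 genes with a mean of at least 100 normalized counts. The libraries share EGF times, populations and scaling, so r is a description. PAPPA (r = 0.991), PDCD11 (0.989) and CLIC1 (0.988) were nearest to ITGA6. PPL (0.969), EIF6 (0.968) and AGPAT9 (0.967) were nearest to ITGB4, and TTYH3 (0.962), STX4 (0.955) and IGFBP3 (0.951) to CD151. EHD1 (0.989), ITGA3 (0.981) and SBDS (0.980) were nearest to PLEC, and KIAA1551 (0.907), SLC2A1 (0.898) and SERINC3 (0.897) to DST. For LAMB3 they were TNS4 (0.977), EREG, which encodes the EGFR ligand epiregulin (0.974), and CD55 (0.958), and for LAMA3 STRIP2 (0.974), INPP4B (0.964) and SRPR (0.956). TMEM164 (0.977), PINK1 (0.969) and SYNPO (0.969) lay nearest to COL7A1, and ENTPD1 (0.941), KAZALD1 (0.922) and GHDC (0.916) to COL17A1.

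Among the 9 themselves, r over the 12 libraries was highest between ITGB4 and PLEC (0.956), ITGA6 and ITGB4 (0.936) and ITGA6 and PLEC (0.927). LAMA3 was closest to CD151 (0.891) and was at 0.599 with LAMB3. LAMB3 was at 0.814 with PLEC and 0.673 with ITGA6. COL17A1 was at -0.17 with CD151 and its highest value was 0.671, with COL7A1. With COL7A1, r was 0.754 for LAMA3, 0.531 for LAMB3, 0.486 for CD151, 0.464 for DST, 0.374 for ITGB4, 0.261 for PLEC and 0.216 for ITGA6.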

How the data were processed

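Per the labels' protocols, libraries of poly-A RNA were made from HCC70 cells with version 2 of the TruSeq RNA kit. STAR, DESeq2 and hg19 are named in the submitters' processing notes. Not given in the sources used here are their versions, the counting tool, the annotation and the strand setting. Per gene and library, the authors deposited a signal per gene and library, the read count divided by a size factor: values divided by their smallest step were whole to within 0.001 for 100% in every library. The deposited table also holds a log2 fold change and an adjusted p-value of a contrast its header does not name. The main test was limma-trend (limma 3.58.1, R 4.3.3, robust) on log2(normalized count + 1), with a mean per group over all 12 libraries. It covered genes that reached 10 normalized counts in 2 or more libraries. Fold changes on this scale understate changes of low genes. A call needed a Benjamini-Hochberg adjusted p under 0.05. edgeR 4.0.16 (quasi-likelihood, TMM) and DESeq2 1.42.0 on the recovered reads, other scalings, filters, blocks and left-out libraries were alternatives. The script was tested on simulated data with independent libraries and no replicate effect. That check does not measure error rates for these libraries, whose replicates share deviations.

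Named were all 9 genes, LAD1, ITGA3, KRT5 and KRT14, up to 3 called genes a direction in each list, and the 3 genes most like each member. A gene of the laminin list is not reported here. Other markers named for cell identity were chosen after their values were seen. The members and lists were chosen with earlier results of these data known.

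The labels number libraries 1 and 2 without saying whether these are separate cultures, so p-values measure only how these samples vary, and that variation may be technical. Replicates differed by more than counting noise (chi-square per degree of freedom 9.04 to 22.7). The deviations of same-numbered libraries from their group means were correlated. Correlations were 0.767 to 0.890 between groups of the same shRNA and 0.366 to 0.455 between shRNAs. The main test has no term for this pairing, and every call given without a named alternative ignores it. The replicate blocks, given as alternatives, use it. Promoter windows came from RefSeq tables on GRCh38.p14, and no coordinate was converted from the files' build.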

Additional observations from a re-analysis of the deposited data

Results flagged for a closer look

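ITGB4 at 40 min of EGF had ratios to its 0 min value of 1.07 and 1.12 in the shLAD1 replicates and of 0.929 and 0.999 in the scramble replicates, the last of which is nearly no change. Neither response passed the test. The difference on the log2 scale was 0.19 and did not pass the test of the difference (adjusted p = 1).

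COL7A1 at 240 min of EGF was below its 0 min value in both shLAD1 replicates (0.931 and 0.622) and above it in both scramble replicates (1.73 and 1.80). The difference was -1.17 on the log2 scale and did not pass (adjusted p = 0.9999). The scramble libraries held 9.25 to 39.4 normalized counts of this gene.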

How the results depend on the processing

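The number of the 9 genes called at 240 min of EGF stayed within 1.5 times of 4 in shLAD1 and 5 in scramble cells under every alternative run. At 40 min it was 2 with a replicate block within shRNA in both kinds of cells, 0 in shLAD1 cells with total-count scaling, upper-quartile scaling or only the groups compared, and 0 to 1 (shLAD1) or 0 (scramble) when a library was left out. Between the shRNAs at 0, 40 and 240 min it was 2 with DESeq2 and with the replicate block, 0 at 0 and 40 min with only the groups compared, and 0 to 1 without a library at 0 or 40 min. Averaged over the times it was 6 with the replicate block, 3 with DESeq2 and with edgeR, and 0 with population means. For the difference in response at 240 min it was 1 (DST) with the replicate block within shRNA. The block changed no other count of the 9 by over 1.5 times. The cause of these shifts was not tested; a fit of only the groups compared has fewer libraries to estimate the spread. LAMA3's 240 min change in shLAD1 cells ran from -0.21 to 0.54 with a library left out, and DST's was -0.025 with total-count scaling, which moved the median of all genes by -0.12 in shLAD1 and -0.13 in scramble cells. Relative to that median ITGB4's scramble change was 0.40 under both scalings. Over all genes, and apart from left-out libraries, calls ranged from 30 to 666 at 40 min in shLAD1 and 95 to 530 in scramble cells (145 and 119 in the main test), 313 to 6450 and 2556 to 6715 at 240 min (2585 and 2813), 1 to 1600, 1 to 1578 and 1 to 1462 between shRNAs at 0, 40 and 240 min (217, 230 and 133), and 0 to 5034 averaged over the times (2588). COL17A1 had 7.20 to 33.8 normalized counts per library.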
